A study of Mus musculus with 2 samples.

Results

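The genes of polyamine metabolism were compared between pooled slow and pooled fast skeletal muscle fibres of the mouse. In all, 10 enzymes and regulators made up the set: 4 that synthesise polyamines (Odc1, Amd1, Srm and Sms), 3 that break them down (Smox, Sat1 and Paox) and 3 that control ornithine decarboxylase protein (Oaz1, Oaz2 and Azin1). Members were found through the RefSeq accession that the array gives for each probe. Of the 10 genes, 9 had a matched probe, with 19 probes between them, among 23458 genes and 56596 probes in all. No probe carried the Amd1 accession, so Amd1 has no value here. All 19 probes were well above background on both arrays, which held for 12855 genes of the series by their chosen probe.

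The slow pool held 1659 soleus fibres that carried GFP, and the fast pool 4447 fibres of the extensor digitorum longus (EDL) that did not. The donors were 8 mice, all male, aged 6 to 8 weeks and heterozygous for the GFP-Myh7 allele (G/+), in which fibres with slow myosin fluoresce. Each pool was hybridised to 1 array, so there was no replicate and no test between the pools, and precision is limited by having 2 arrays. Animals were pooled, and muscle of origin and fibre type differ together and cannot be told apart. The tissue characteristic of the slow sample names the EDL, whereas its source and the protocol name the soleus.

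Polyamines are small positively charged molecules that bind nucleic acids and are needed for growth and translation. Ornithine decarboxylase makes putrescine, S-adenosylmethionine decarboxylase makes the aminopropyl donor, and spermidine and spermine synthase add aminopropyl groups in turn. Breakdown runs either directly, through spermine oxidase, or through acetylation by spermidine/spermine acetyltransferase followed by the peroxisomal polyamine oxidase. In mouse skeletal muscle, Smox transcript is known to be abundant and to drop in atrophy.

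Spot intensities were scaled by the 75th percentile of each array, which was 196.0 on the slow and 182.7 on the fast array, and differences are slow minus fast on the log2 scale. A gene with several probes was represented by its brightest probe. The scanner software's own error gave a median error of 0.20 for a difference, and probes printed repeatedly had a median SD of 0.05. Neither covers variation between animals or dissections. A size rule of 2-fold stood in for a test.

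The pools matched their labels by contractile markers. Myh7, the slow myosin heavy chain, differed by 8.08, and Myh4, Myh1 and Myh2, the fast chains, by -11.54, -6.84 and -1.84. All 5 slow fibre markers passed 2-fold towards the slow pool, from 5.83 for Myl2 to 9.81 for Tnnc1. All 5 fast fibre markers passed it towards the fast pool, from -4.85 for Tnni2 to -11.54 for Myh4. Markers of other cell types were mostly lower in the slow pool: of 31 measured, 1 passed 2-fold towards the slow pool and 24 towards the fast pool, with a median of -1.48. Endothelial markers, 6 of 7 past 2-fold towards the fast pool, ran from -0.86 for Pecam1 to -3.90 for Cldn5, with a summed scaled level of 3.09 in the slow and 15.9 in the fast pool. Fibroblast markers, 6 of 6, ran from -1.40 for Pdgfra to -2.18 for Col1a1, with summed levels of 37.9 in the slow and 154.6 in the fast pool. Immune markers, 2 of 3, ran from -0.92 for Csf1r to -2.15 for Cd68, with summed levels of 4.11 in the slow and 15.8 in the fast pool, and Ptprc and Adgre1 were not well above background. Erythrocyte markers, 4 of 4, ran from -1.12 for Alas2 to -1.46 for Hba-a2, with summed levels of 34.7 in the slow and 92.9 in the fast pool. Schwann cell markers, 3 of 4, ran from -0.05 for S100b to -1.99 for Prx. Smooth muscle and pericyte markers ran from 1.24 for Cspg4 to -1.62 for Rgs5, with 2 of 5 past 2-fold towards the fast pool. Of the satellite cell markers, Pax7 stood at 0.60 and Vcam1 at -1.71. In pooled RNA, fewer cells of a type and less RNA per cell cannot be told apart.

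Of the 9 polyamine genes, 0 passed 2-fold towards slow fibres and 3 passed it towards fast fibres, namely Smox, Azin1 and Odc1. The shares over all 12855 genes measured on both arrays were 9.39% towards slow and 12.7% towards fast fibres. The remaining 6 members lay within 2-fold. One gene from each of the 3 roles was thus lower in slow fibres, and the median over the 9 members was 0.01, against 0.05 over all genes measured on both arrays.

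**Figure D1:**
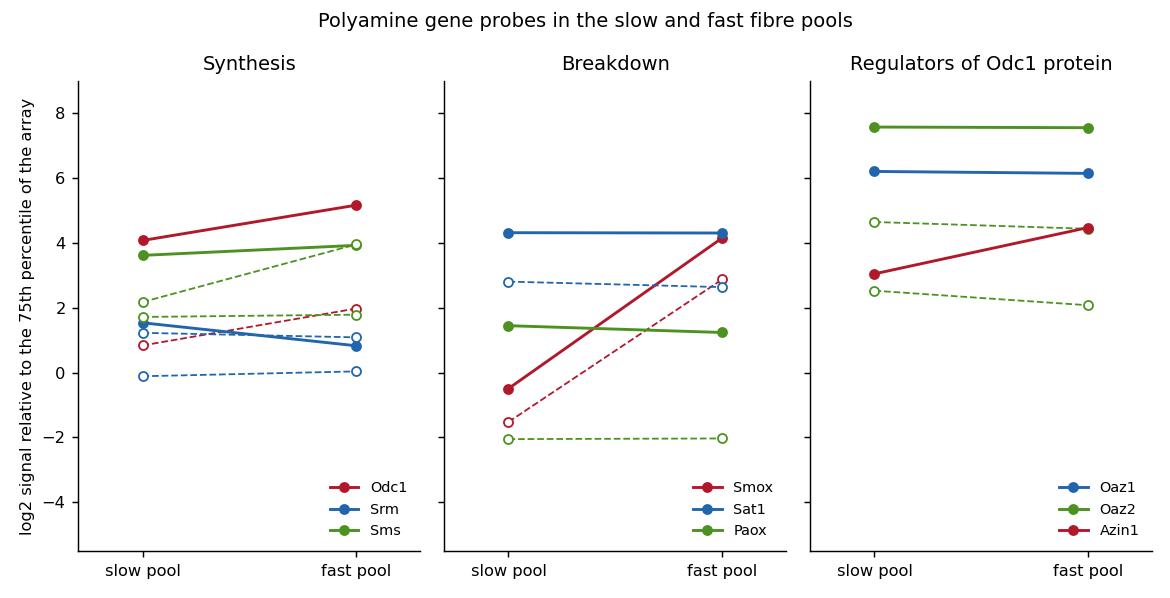
Levels of the 19 probes of 9 polyamine genes in the slow pool (left of each panel) and the fast pool (right), as log2 signal relative to the 75th percentile of the array, 1 array per pool. Solid lines with filled points are the probe that represents a gene and dashed lines with open points its other probes; both Smox probes are far lower in the slow pool, while Sat1, Oaz1 and Oaz2 run nearly flat.

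Odc1, ornithine decarboxylase, the first and rate-limiting enzyme of synthesis, had a signal of 3326 in the slow pool and 6581 in the fast pool by its brighter probe. The difference was -1.09 ± 0.20 (software error), or 2.12-fold higher in fast fibres. Its other probe gave signals of 350.2 in the slow and 720.8 in the fast pool, a difference of -1.14. The probes thus differed by 0.06, less than the error of either. Of all genes measured on both arrays, 1479, Odc1 included, had a difference at or below its own, which placed it at percentile 11.5. Scaled to spike-in controls, which adds 0.42 to every difference and moves the median of all genes to 0.46, Odc1 stood at -0.67 and within 2-fold.

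Srm, spermidine synthase, was brighter in the slow pool by its brightest probe, with signals of 571.9 in slow and 324.3 in fast fibres and a difference of 0.72 ± 0.20. Its other probes gave differences of 0.15 and -0.15, so the direction of Srm depended on the probe. The median over its probes was 0.15, and with spike-in scaling its brightest probe reached 1.13 and passed 2-fold.

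Sms, spermine synthase, an X-linked gene, had signals of 2405 in the slow and 2780 in the fast pool, a difference of -0.31 ± 0.20. A second probe was nearly level, with 647.4 in slow and 630.5 in fast fibres and a difference of -0.06. The third probe, for the same accession, had 888.8 in the slow and 2844 in the fast pool, a difference of -1.78, or 3.43-fold higher in fast fibres. The probes of Sms therefore spanned 1.72. Among 4465 genes with at least 2 probes measured on both arrays the median span was 0.23, and 119 genes (2.67%) spanned at least as much as Sms.

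S-adenosylmethionine decarboxylase was represented on the array by 4 probes for the accession of Amd2, a relative of Amd1 and a gene outside the 10. The start of the Amd1 transcript and that of Amd2 are shown as an example of sequence that both genes share. The RefSeq windows of build GRCm38.p6 end 50 bases from the start on. In them, 48 bases in a row were the same in both genes, up to the end of the Amd1 window, so the run may be longer. These bases began 2 bases after the annotated start of Amd1 and 0 bases after that of Amd2. The first 30 of them, all shared and in capitals, lie at chr10:40302157-40302186 on the minus strand for Amd1 and at chr10:35711862-35711891 on the minus strand for Amd2.
Amd1: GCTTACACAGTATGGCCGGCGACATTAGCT
Amd2: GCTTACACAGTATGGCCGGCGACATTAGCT
Probe sequences were not used here, so it is unknown whether any probe lies on these bases. Whether the probes read Amd1, Amd2 or both is uncertain. By the brightest of them, signals were 3087 in the slow and 6472 in the fast pool, a difference of -1.17 ± 0.20. The other probes gave -0.42, -0.65 and -0.65, so all 4 were lower in slow fibres but 1 passed 2-fold. Their median was -0.65, and the brightest stood at -0.75 with spike-in scaling.

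Smox, spermine oxidase, which returns spermine to spermidine and releases hydrogen peroxide, differed most of the set. Its signal was 139.5 in the slow pool and 3274 in the fast pool by one probe, and 68.2 in the slow and 1342 in the fast pool by the other. The differences were -4.65 ± 0.21 and -4.40 ± 0.21, or 25.2-fold and 21.1-fold higher in fast fibres. Among all genes measured on both arrays, 41, Smox included, had a difference at or below its own, which placed it at percentile 0.311. No endothelial, fibroblast or immune marker of the lists differed as much, the nearest being Cldn5 at -3.90. Azin1 at -1.43 and Odc1 at -1.09 differed less than the median marker of other cell types, at -1.48. The part of other cell types in the lower Smox, Azin1 and Odc1 levels of the slow pool was not tested. Under normexp background correction, which models the local background, Smox stood at -4.10 and -4.11, and under the remaining alternatives between -4.76 and -4.24.

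The other breakdown genes were nearly level between the pools. Sat1, the acetyltransferase that opens the indirect route and an X-linked gene, had signals of 3917 in the slow and 3621 in the fast pool, a difference of 0.01 ± 0.20, and a probe for another of its transcript accessions gave 0.17. Paox, the polyamine oxidase of the peroxisome, had 537.3 in the slow and 430.1 in the fast pool, a difference of 0.22 ± 0.20. Its dimmer probe, at 47.4 in slow and 44.6 in fast fibres, gave -0.01. The difference of Smox minus that of Sat1 was -4.67, and minus that of Paox -4.87, a contrast that no constant scaling of an array can change.

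The antizymes, which bind ornithine decarboxylase and send it to the proteasome, did not pass 2-fold by any probe. Oaz1 had signals of 14493 in the slow and 12989 in the fast pool, a difference of 0.06 ± 0.20. Oaz2 had 37516 in the slow and 34372 in the fast pool, a difference of 0.02 ± 0.20, and its dimmer probes gave 0.21 and 0.45. Azin1, a relative of ornithine decarboxylase without enzyme activity that sequesters antizyme, had 1621 in the slow and 4083 in the fast pool by its only probe. Its difference of -1.43 ± 0.20, or 2.70-fold higher in fast fibres, lay at percentile 7.70 of all genes and stayed past 2-fold under every scaling and background alternative, at -1.02 with spike-in scaling. The difference of Odc1 minus that of Oaz1 was -1.14, and that of Azin1 minus that of Oaz1 was -1.49.

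**Figure D2:**
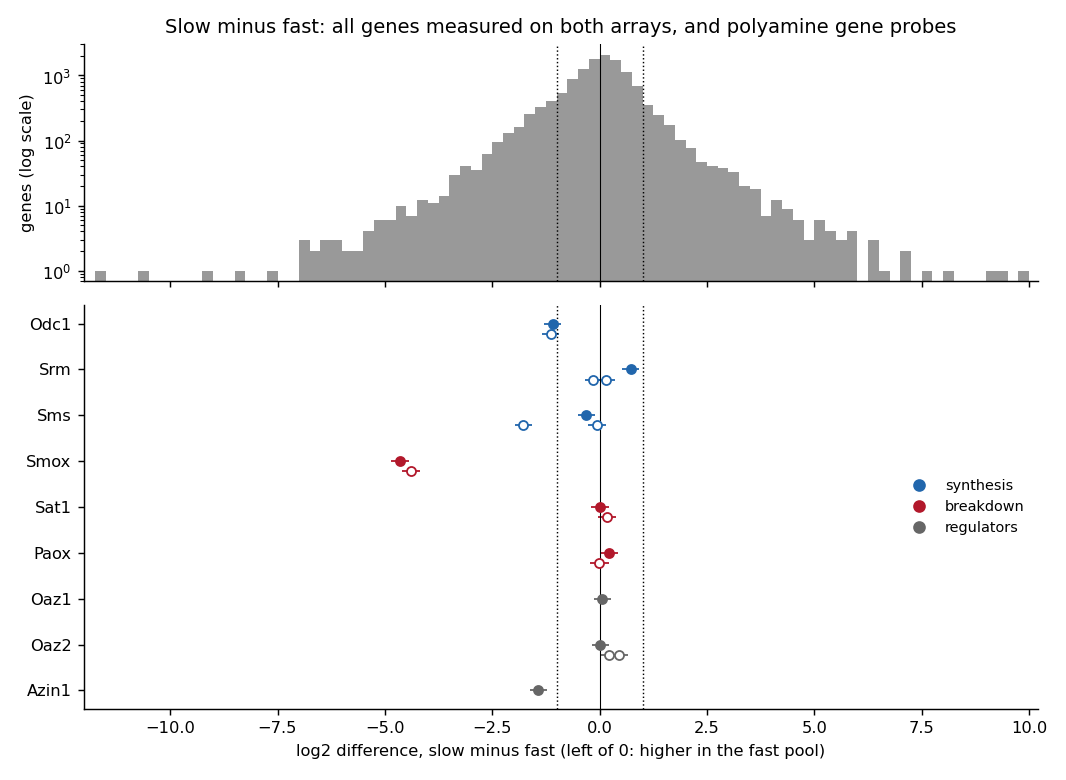
Top, number of genes (log scale) by log2 difference, slow minus fast, for all 12855 genes measured on both arrays; bottom, the difference of each polyamine gene probe with the scanner software's error as bars, filled for the probe that represents the gene. Dotted lines mark 2-fold. Both Smox probes lie in the thin left tail, at -4.65 and -4.40, and 1 of the 3 Sms probes lies apart from the other two.

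Synthesis and breakdown were then set against each other. The mean difference was -0.23 over the 3 measured synthesis genes and -1.47 over the 3 breakdown genes, so that synthesis minus breakdown was 1.25 ± 0.17 (software error). That value rested on Smox: without it the contrast was -0.34, and with medians in place of means it was -0.32. With Amd2 among the synthesis genes, by its brightest probe at -1.17, it was 1.01. The other Amd2 probes gave -0.42, -0.65 and -0.65. Of the 9 pairs of a synthesis and a breakdown gene, 5 had the higher slow minus fast difference in the synthesis gene, namely the 3 pairs with Smox and the pairs of Srm with Sat1 and Paox, at 0.70 and 0.50. By its other probes, Srm differed by 0.15 and -0.15. The medians were -0.31 for synthesis, 0.01 for breakdown and 0.02 for the regulators. No single direction therefore described either arm.

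Promoters of Smox and Odc1 are shown because these genes were at least 2-fold lower in slow fibres by every probe. The RefSeq windows of build GRCm38.p6 run from 250 bases before to 50 bases after the annotated start, at chr2:131491612-131491911 on the plus strand for Smox and chr12:17544623-17544922 on the plus strand for Odc1. Capitals mark matches to the GC box GGGCGG on either strand.
Smox: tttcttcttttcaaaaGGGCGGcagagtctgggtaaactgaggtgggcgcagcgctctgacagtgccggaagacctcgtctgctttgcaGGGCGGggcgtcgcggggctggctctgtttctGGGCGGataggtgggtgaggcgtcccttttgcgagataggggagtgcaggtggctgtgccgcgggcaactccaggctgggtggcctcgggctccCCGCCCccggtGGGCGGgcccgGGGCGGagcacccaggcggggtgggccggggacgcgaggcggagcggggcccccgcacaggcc
Odc1: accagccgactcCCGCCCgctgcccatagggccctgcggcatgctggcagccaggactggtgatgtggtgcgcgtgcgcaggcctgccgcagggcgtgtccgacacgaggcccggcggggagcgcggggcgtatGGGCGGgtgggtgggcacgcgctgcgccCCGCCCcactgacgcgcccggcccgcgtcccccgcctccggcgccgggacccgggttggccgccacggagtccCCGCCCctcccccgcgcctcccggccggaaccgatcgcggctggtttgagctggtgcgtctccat
The Smox window held 6 GC boxes and the Odc1 window 4, at a GC content of 71.0% and 78.0%, against a median of 52.7% over all windows. Windows of members within 2-fold ranged from 0 boxes at 50.3% to 4 boxes at 74.3%, both of Sms. Of 32851 windows in the table, 35.7% held at least 1 GC box. It was also present for Amd1, Oaz2, Paox, Sat1 and Sms, that is in 7 of 8 members with a window, so it did not separate the genes that differed from those that were level. Sms and Paox have 2 windows each, and in Sms the GC boxes and the E-box CACGTG lie in different ones. The E-box was found in Sms alone among the members (7.15% of all windows), TATAAA in Oaz1 (13.6%), CCAAT in Oaz1 and Sms (37.4%) and the cAMP response element TGACGTCA in 0 (1.79%). All motifs were searched on both strands, and matches of different motifs that share letters were each counted. Srm and Azin1 were matched to no window.

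Around the core set, 42 genes of arginine and ornithine supply, the methionine cycle, hypusine formation, further enzymes, transport and transcription factors were examined. Of these, 34 were well above background on at least 1 array. Past 2-fold were 3 genes towards slow fibres, where 10.6% of the 14647 genes measured on at least 1 array lay, and 7 towards fast fibres, where 14.2% lay. Their median was -0.14 over the 32 measured on both arrays.

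The genes that supply S-adenosylmethionine and clear its by-product held a large difference. Mat2a, the methionine adenosyltransferase of non-hepatic tissue, had signals of 10406 in the slow and 27255 in the fast pool, a difference of -1.49, and -1.35 by its second probe. Mtap, which recovers the methylthioadenosine released by spermidine and spermine synthase, had 91.7 in the slow and 755.7 in the fast pool, a difference of -3.14, or 8.84-fold higher in fast fibres, by its only probe. Normexp brought Mtap to -2.55. The other 7 genes measured of this list lay within 2-fold, and the list's median was -0.23.

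Ornithine and arginine genes went both ways. Oat, the mitochondrial ornithine aminotransferase that competes for ornithine, had 6626 in the slow and 14267 in the fast pool, a difference of -1.21, and was within 2-fold at -0.79 with spike-in scaling. Slc7a2, a cationic amino acid transporter, had 32.2 in the slow and 132.7 in the fast pool, a difference of -2.14 that normexp reduced to -1.11. Slc25a15, the mitochondrial ornithine carrier, was dim, with 18.4 in the slow and 8.30 in the fast pool, and its difference of 1.04 was 0.14 under normexp and 0.93 in the authors' values. Azin2, the second antizyme inhibitor, was well above background in fast fibres alone, at least 1.25-fold higher there, and neither array measured the arginases Arg1 and Arg2 well above background. The list median was 0.25 over 6 genes.

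Among the wider lists, transport held the largest differences in favour of slow fibres, from probes that were dim on the fast array. Slc22a2, an organic cation transporter, had a signal of 294.4 in the slow pool and 1.90, not well above background, in the fast pool, a level at least 38.0-fold higher in the slow pool, from a single-probe gene. Here the bright value was set against the lowest signal well above background on the fast array. Normexp reduced its log2 bound of 5.25 to 2.38. Slc22a3, a related carrier, had 75.03 in the slow and 10.01 in the fast pool, a difference of 2.81, which normexp brought to 0.82 and within 2-fold. These were the 2 genes past 2-fold towards slow fibres among 8 measured, and the list's median was -0.08. Atp13a2 and Atp13a3, P-type ATPases that export polyamines from lysosomes and endosomes, differed by -0.58 and 0.64. Slc3a2, a subunit of amino acid exchangers, gave -0.08 by its brighter probe and -1.46 by the other.

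All 4 hypusine genes, for the translation factor eIF5A and the enzymes that build its spermidine-derived residue, lay within 2-fold. Eif5a and Eif5a2, which encode the factor, were the farthest at -0.20 each, and the median was -0.02. Among transcription factors known for acting on Odc1, Mycn differed by -1.39, with signals of 35.2 in the slow and 85.9 in the fast pool, and by -0.60 under normexp. Myc and Max were within 2-fold, at 0.14 and 0.06. Neither array measured Oaz3, Satl1 or Aoc1 well above background, and Sat2 differed by -0.28.

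**Figure D3:**
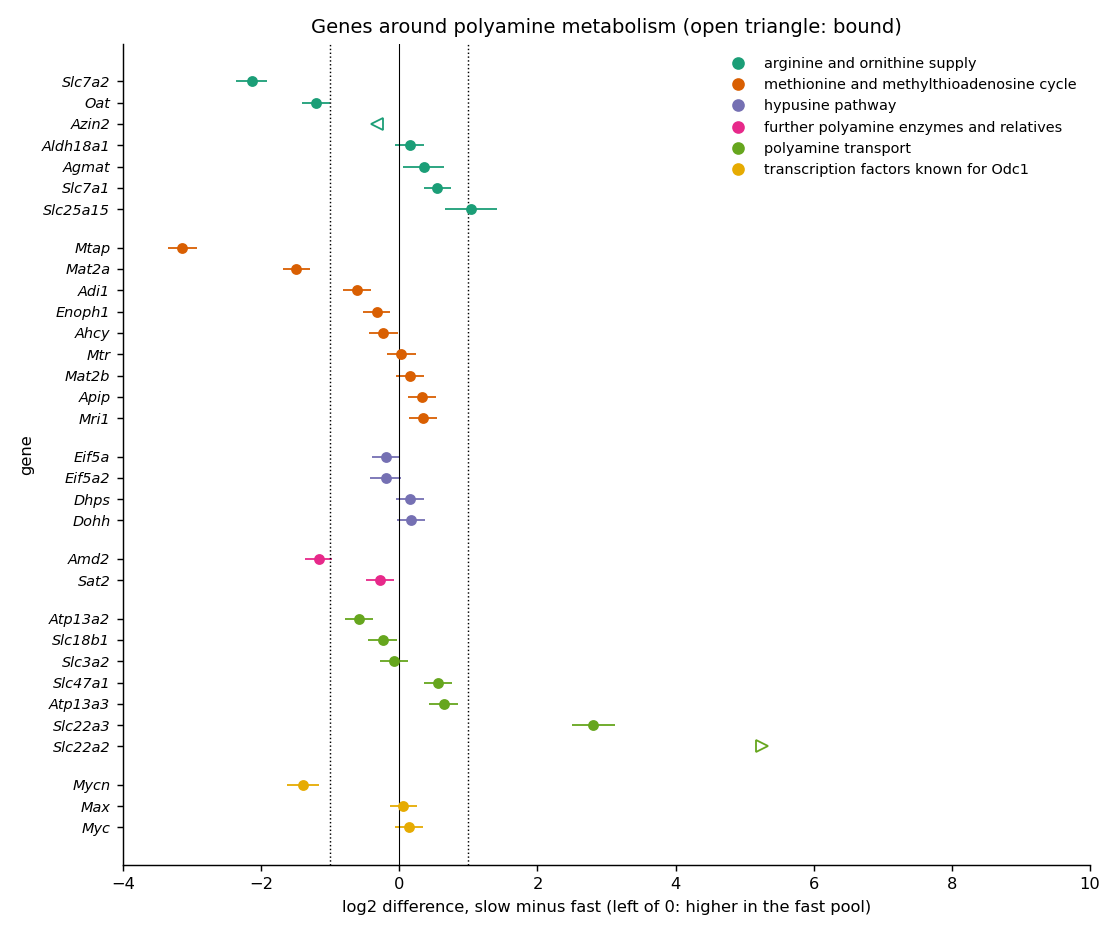
Log2 difference, slow minus fast, of 32 of the 34 measured genes around polyamine metabolism, by list and bounds included, with the scanner software's error as bars, 1 array per pool. Open triangles are bounds for genes well above background on 1 array, and dotted lines mark 2-fold. Mtap, Slc7a2 and Mat2a lie farthest to the left and Slc22a2 and Slc22a3 farthest to the right.

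**Figure D4:**
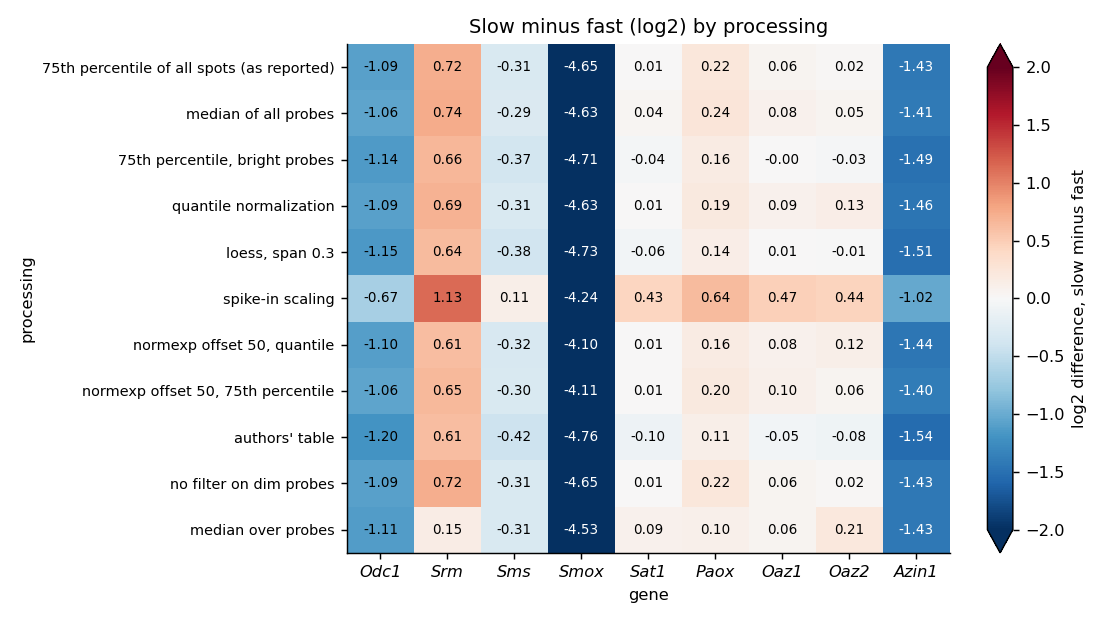
Log2 difference, slow minus fast, of the 9 measured polyamine genes (columns) under the reported processing and 10 alternatives (rows), with values in the cells and colours limited to 2 in either direction. Smox and Azin1 are below -1 in every row and Odc1 in every row but spike-in scaling, where it is -0.67.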

How the data were processed

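RNA of 1 slow and 1 fast fibre pool (0.1 µg each) was labelled with Cy3, per the labels' protocols. Per the file headers, the deposited spot intensities had their background removed and trends across the slide corrected, separately for each array, with no scaling between arrays. The software was Agilent Feature Extraction 12.0.3.1, as the submitters' processing notes also state. A further table of values from the authors holds the same intensities multiplied by 2.45 (slow) and 2.83 (fast), uncentred, with column medians of 27.1 and 30.1; what the factors scale to is unknown. Both columns run the same way as the scanner values, but the unequal factors lower every difference, and Sat1, Oaz1 and Oaz2, which lie near 0, are below 0 in that table.

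Control spots and 159 spots with outlier flags were left out, and log2 signals were reduced by the 75th percentile of all non-control spots of the array. No spot was saturated. Accessions without versions matched 33763 of 56596 probes (59.7%) to a RefSeq gene table of GRCm38.p6, used for names; the array design refers to mm9. A gene took its brightest probe well above background on at least 1 array. Of all non-control spots, 50.9% (slow) and 52.3% (fast) were well above background. With 1 array per group no test was possible, and differences of at least 2-fold are counted. For a gene above background on 1 array, the bound divides the bright level by the lowest one well above background on the dim array, or by the dim probe's own if that is higher. In simulated data the calculation recovered planted changes well past 2-fold. All probes of a gene were shifted alike there, and no gene was above background on 1 array alone. The simulation therefore does not bear on differences near 2-fold, on probes that disagree or on the bounds.

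The text names every member with all probes; of each wider list up to 6 genes past 2-fold or, with none, the 2 farthest from 0; of each marker list the highest and lowest; and Myh7, Myh2, Myh1 and Myh4. Values of 2 genes that the rule or lists hold are not reported here. Other genes were named after their values were seen. The members and lists were chosen with earlier results of these data known. Alternatives changed the scaling, background correction (normexp, offset 50, on median intensities, limma 3.58.1), value source, dim-probe filter, probe rule and size rule. Python 3.11.15 and R 4.3.3 were used.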

Additional observations from a re-analysis of the deposited data

How the results depend on the processing

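Each array stands alone, so no replicate could be left out. No paired analysis was possible because each group has 1 array. Over 10 alternatives for scaling, background, value source, filter and probe rule, the 3 members called higher in fast fibres became 2 under spike-in scaling, which left Odc1 within 2-fold, and stayed at 3 otherwise. Spike-in scaling adds 0.42 to every difference, moving the median of all genes to 0.46, and gave 1 member at least 2-fold higher in slow fibres, medians of 0.11 for synthesis, 0.43 for breakdown and 0.44 for the regulators, and 3 wider pathway genes at least 2-fold higher in fast fibres. It called 3098 genes of all higher in slow and 1307 in fast fibres (70.3% slow), against 1557 and 2087 (42.7%) as reported. Relative to the median of all genes, such a constant cancels. There Odc1 at -1.13, Azin1 at -1.48 and Smox at -4.70 equal the values of the reported processing by construction. Normexp called 772 and 984 genes with quantile normalization and 779 and 996 with the 75th percentile, 1 wider pathway gene higher in slow fibres in either case, and a synthesis minus breakdown value of 1.04 with quantile normalization. Without a filter on dim probes the counts over all genes were 2476 towards slow and 3084 towards fast fibres. The median over probes gave a synthesis minus breakdown value of 1.02.

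Under a size rule of 1.5-fold, 1 member was higher in slow fibres, and 3083 and 3382 of all genes were called higher in slow and in fast fibres. Under 3-fold, 1 member and 2 wider pathway genes were higher in fast fibres, and 762 and 1059 of all genes were called. Chosen after seeing the data, adding Amd2 by its brightest probe gave a synthesis median of -0.70 and a synthesis minus breakdown value of 1.01. Also chosen so, leaving out Smox gave -0.34 for that value, and medians in place of means gave -0.32. The last 2 reversed its sign. In these the change of genes or summary itself makes the difference. Spike-in scaling adds a constant, and the size rules only move the threshold. Normexp adds its offset of 50 to every intensity, which by itself shrinks the differences of dim probes. How much of the normexp changes came from the offset was not tested, nor was the cause under the remaining alternatives. Paox, Srm, Odc1, Azin1 and Smox kept their sign in all 10 alternatives by the settings above, while Sat1 and Oaz2 kept it in 7, Oaz1 in 8 and Sms in 9. All but the median over probes used the same probe of each member. The dim-probe filter could not change them, since all member probes were well above background. The signs of Srm and Paox depended on the probe, with -0.15 by 1 Srm probe and -0.01 by the dimmer Paox probe. Fast pool signals near 10, as for Slc22a3, Slc25a15 and Azin2, are near background and limit what can be read from them.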
